A study of Saccharomyces cerevisiae BY4741 with 2 samples.

Results

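Transfer RNAs carry amino acids to the ribosome and read messenger RNA codons through their anticodon. In budding yeast, RNA polymerase III transcribes the nuclear tRNA genes from promoters that lie inside the gene and are bound by the factor TFIIIC. The transcript is trimmed at both ends, receives a CCA end, loses an intron in some families, and is modified at many bases before an aminoacyl-tRNA synthetase charges it. These modified bases and the stable fold are known to hinder reverse transcription, so sequencing counts of tRNA hold both precursor and mature RNA in proportions that counts over a gene do not separate.

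The nuclear tRNA genes were the 275 of 7134 rows of the sense-strand count table whose name begins with t, an amino acid letter and an anticodon in brackets. Another 24 such rows carry a Q after the bracket, which marks a mitochondrial gene, and were left out. The last letter of a name gives the chromosome, and a digit after it numbers the copies there. The rows were grouped into 20 amino acids and 41 anticodons by summing the counts of all copies, with tX(XXX)D and tX(XXX)L, which name neither an amino acid nor an anticodon, kept as a group of their own. Of the 275 rows, 239 passed the filter on low counts, 30 had too few counts and 6 had no count in any library.

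The data came from total RNA of Saccharomyces cerevisiae, depleted of ribosomal RNA, in 2 wild-type libraries and 2 libraries of a strain without DBP2, which codes for a DEAD-box RNA helicase. Both strains were labelled BY4741 and MATa and were grown to mid-log phase at 30 °C in rich medium with 2% glucose. The wild type carried his3Δ1, leu2Δ0, met15Δ0 and ura3Δ0, and the deletion strain dbp2::KanMx with ura3Δ0, leu2Δ0, his3Δ0, TRP1, met- and lysΔ, so DBP2 and the other marker differences cannot be told apart. Whether the 2 libraries of each strain are separate cultures is not in the labels, so a p-value here measures spread among libraries that may be only technical. As a check of the labels, DBP2 had 7320 and 9662 wild-type counts and 66 and 237 deletion counts, LYS2 had 2373 and 2809 against 8 and 5, and MET17 (also called MET15) had 8 and 1 against 1772 and 1243. The labels do not say which gene met- stands for, so the MET17 counts neither bear out nor contradict that marker. The table numbers the deletion libraries 2 and 3, and they are called deletion 2 and deletion 3 here.

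The sequences of the mature tRNAs below were read from the R64 reference genome with the RefSeq annotation, which also holds 275 nuclear tRNA genes. They are written as DNA, 5′ to 3′, with introns removed and the anticodon in capitals, and positions are counted from 1 at the 5′ end. The first pair is shown because glutamine tRNA held more tRNA counts than any other amino acid (48.9% ± 3.36 in wild type, SD, n = 2). The tQ(CUG) gene CDC65 (chrXIII:808246-808317, minus strand) occurs once, and 7 of the 9 tQ(UUG) genes share the second sequence, given from chrIII:168301-168372, minus strand.
tQ(CUG)M: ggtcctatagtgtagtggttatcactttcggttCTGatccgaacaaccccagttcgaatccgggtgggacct
tQ(UUG), 7 genes: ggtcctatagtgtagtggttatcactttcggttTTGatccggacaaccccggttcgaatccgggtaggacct
From the first to the second they differ by C34T, A42G, A51G and G66A. The next pair is the 2 glycine tRNAs with the anticodon CCC, SUF3 or tG(CCC)D on chromosome IV (chrIV:1257008-1257079, minus strand) and SUF5 or tG(CCC)O on chromosome XV (chrXV:594354-594425, minus strand), which are shown because their counts went apart. From SUF3 to SUF5 they differ by A4C, C27T, G44A and C68G.
SUF3: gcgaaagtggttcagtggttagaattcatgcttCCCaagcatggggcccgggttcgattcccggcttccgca
SUF5: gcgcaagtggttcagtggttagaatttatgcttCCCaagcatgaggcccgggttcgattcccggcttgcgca
Methionine has an initiator tRNA, which starts proteins (5 genes, IMT1 to IMT4 among them, shown from chrIII:149920-149991, plus strand), and an elongator tRNA (5 genes, EMT1 to EMT5, shown from chrIV:1175829-1175901, plus strand). Both carry the anticodon CAU, so that the row names alone do not tell them apart.
tM(CAU) initiator: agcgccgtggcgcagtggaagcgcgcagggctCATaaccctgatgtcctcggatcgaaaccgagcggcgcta
tM(CAU) elongator: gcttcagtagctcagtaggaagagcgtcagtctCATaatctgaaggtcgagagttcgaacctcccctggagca
The glutamate tRNAs are shown because a single base separates 1 well counted gene from its family. The 13 tE(UUC) genes of the first line (shown from chrII:645167-645238, plus strand) and tE(UUC)M (chrXIII:290801-290872, plus strand) differ by T67G, read from the first to the second. The 2 tE(CUC) genes (shown from chrIV:1017207-1017278, minus strand) differ from the first line by A7G, C32T, T34C, T65C and A66T.
tE(UUC), 13 genes: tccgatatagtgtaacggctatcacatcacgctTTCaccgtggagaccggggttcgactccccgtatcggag
tE(UUC)M: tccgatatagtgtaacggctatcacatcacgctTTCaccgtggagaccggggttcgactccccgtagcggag
tE(CUC), 2 genes: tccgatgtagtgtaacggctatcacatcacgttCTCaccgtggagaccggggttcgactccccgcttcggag
The last sequence is that of alanine tRNA with the anticodon AGC, identical in 11 genes on 9 chromosomes (shown from chrIV:410379-410451, plus strand). All 11 rows were called lower, but with the same sequence they are not separate observations.
tA(AGC), 11 genes: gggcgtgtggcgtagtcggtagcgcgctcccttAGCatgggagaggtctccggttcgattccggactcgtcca

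Nuclear tRNA counts were lower in the strain without DBP2. Summed over the 275 rows, they came to 9987 and 9278 CPM (counts scaled to a common library size with TMM factors, so that the typical gene is level between the strains) in wild type and to 4692 and 6590 CPM in deletion 2 and deletion 3. Both deletion libraries lay below both wild-type libraries. The sum was 1.71-fold lower (log2 fold change -0.77, SE 0.18, adjusted p = 0.00893 in edgeR's quasi-likelihood test), in a table in which 41.8% of all features were called in either direction. It was -0.55 without deletion 2 and -1.04 without deletion 3.

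As a plain share of all counts, nuclear tRNA took 0.831% and 0.794% in wild type (90209 and 99888 counts) and 0.540% and 0.805% in deletion 2 and deletion 3 (194534 and 200860 counts). Each Wilson 95% interval was narrower than the gaps between libraries, the widest running from 0.825% to 0.836%, and such intervals cover counting error only. Deletion 3 lay between the wild-type libraries on this scale, and the log2 fold change with library totals in place of TMM factors was -0.27 (adjusted p = 0.203), while the median over all features was then 0.50 and not 0.01. The falls given here are therefore relative to the typical gene.

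A single row carried much of the sum. The single-copy gene tQ(CUG)M had 41607 and 38130 counts in wild type against 105165 and 115994 in the deletion libraries, which was 46.1% and 38.2% of nuclear tRNA counts in wild type 1 and 2 and 54.1% and 57.7% in deletion 2 and 3. Both deletion libraries gave it a larger share of tRNA counts than either wild-type library. Without this row the tRNA sum had a log2 fold change of -1.17 (SE 0.18, adjusted p = 8.99e-04).

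By amino acid, 14 of 20 tRNA sums were lower in the deletion strain and 0 were higher, where 20.7% of all features tested beside them were called lower and 21.1% higher, 41.8% in all (edgeR adjusted p below 0.05). No amino acid sum was higher at an unadjusted p below 0.05 either, and DESeq2 called 0 higher. The largest fall was that of tyrosine, from 134 and 106 CPM in wild type to 20.0 and 30.6 CPM (log2 fold change -2.25). Arginine followed at -2.23, alanine at -2.15, threonine at -2.13 and isoleucine at -2.08. Tryptophan (-1.86), asparagine (-1.85), valine (-1.83), aspartate (-1.82) and methionine (-1.59) came next. Proline and phenylalanine (both -1.29), glycine (-1.28) and lysine (-1.17) fell least among those called. In all 14 the deletion libraries lay below the wild-type libraries, and how often this held over all features was not counted. Leaving out wild type 2 took proline (-1.02, adjusted p = 0.0824) and phenylalanine (-1.21, adjusted p = 0.0588) over the threshold. Without deletion 3, arginine came to -2.90, proline to -1.93 and phenylalanine to -1.96. The group with no amino acid given was also called lower (-1.03, adjusted p = 0.0410), and that call was lost without either wild-type library (-1.06 and -0.96) and without deletion 2 (-0.67).

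**Figure D1:**
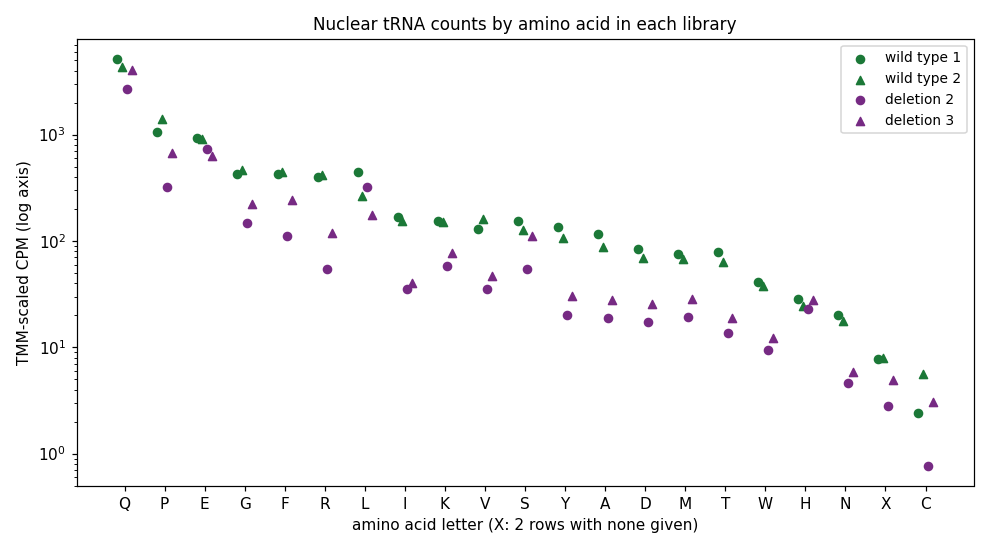
TMM-scaled CPM of nuclear tRNA summed by amino acid (log axis), ordered by the mean wild-type level, with 1 point per library. Deletion points lie below the wild-type points for most amino acids, by 4.75-fold for tyrosine (Y), while histidine (H), leucine (L) and cysteine (C) overlap.

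For the other 6 amino acids the test was not passed. Histidine tRNA had 28.2 and 24.5 CPM in wild type against 22.8 and 27.5 CPM in the deletion libraries (log2 fold change -0.07, SE 0.22, adjusted p = 0.834), and the strains overlapped. Glutamate had 935 and 900 CPM against 736 and 624 (-0.43, adjusted p = 0.0769). Glutamine had 5112 and 4308 CPM against 2690 and 4083 (-0.48, adjusted p = 0.0977, and -0.81 with adjusted p = 0.00380 without deletion 3). For both, the deletion libraries were the lower ones without overlap.

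Leucine tRNA had 442 and 266 CPM in wild type against 323 and 176 in the deletion libraries (-0.50, adjusted p = 0.227, and -1.01 with adjusted p = 0.00503 without deletion 2), with overlap. Serine had 155 and 126 CPM against 54.8 and 110 (-0.77, adjusted p = 0.0649, and -1.36 with adjusted p = 7.29e-05 without deletion 3). Cysteine, with the fewest counts of all, had 2.43 and 5.66 CPM against 0.772 and 3.06 (-1.12, SE 0.63, adjusted p = 0.181, and -2.39 with adjusted p = 0.00375 without deletion 3). For cysteine a difference could not be told from the spread at this depth.

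By anticodon, 33 of 41 sums were lower and 0 were higher, against 20.8% of features called lower and 21.2% called higher in that table, 42% in all. At an unadjusted p below 0.05, 0 were higher, and DESeq2 called 0 higher. The median log2 fold change over the 41 was -1.59, and over all features of the table it was 0.01. Deletion and wild-type libraries did not overlap for 34 of the 41, but the share of all features without overlap was not counted, so this number has no background beside it. Of the 33, 26 were called lower in all 4 fits that left out a library.

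**Figure D2:**
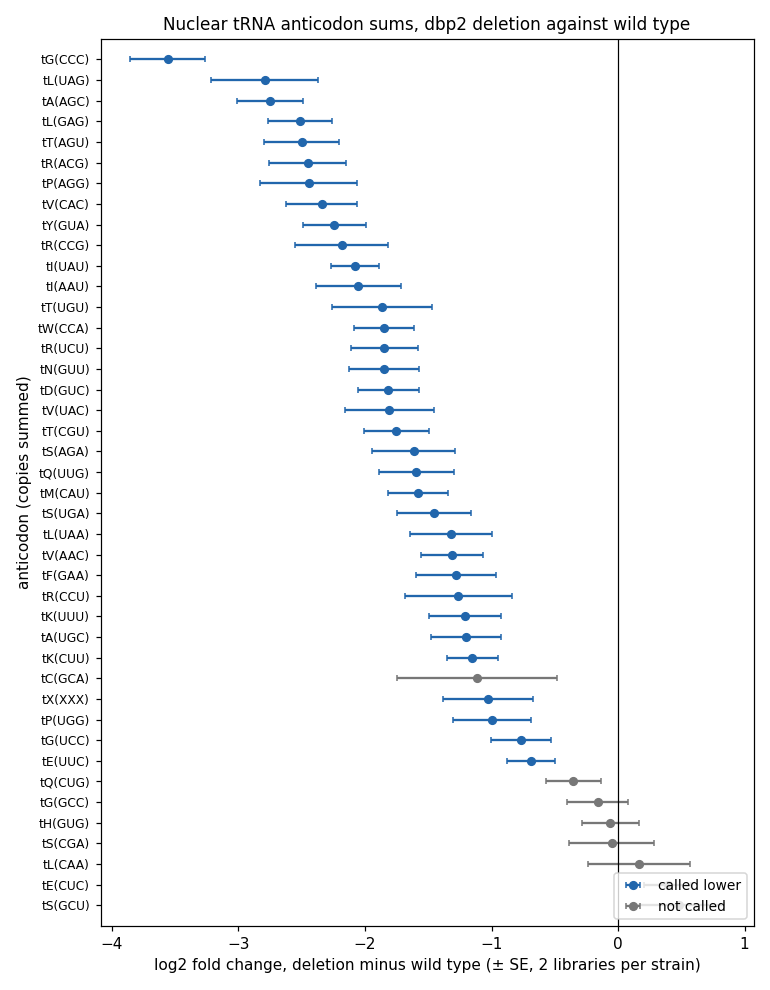
Log2 fold change (deletion minus wild type, ± SE, 2 libraries per strain) of each anticodon sum, ordered from the lowest to the highest, with called and uncalled sums in different colours. The values run from -3.56 for tG(CCC) to 0.48 for tS(GCU), and no sum is called higher.

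The largest falls were found in families of different sizes. The glycine tRNA tG(CCC) had 247 and 231 CPM in wild type against 14.4 and 26.3 CPM in the deletion strain, 11.8-fold lower (log2 fold change -3.56, SE 0.29, adjusted p = 4.85e-05). The leucine tRNA tL(UAG), which has an intron in all 3 of its genes, had 5.74 and 8.61 CPM in wild type against 0.750 and 1.35 CPM in the deletion strain (-2.79, SE 0.42). Both families were far apart in level and fell in both deletion libraries.

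The alanine tRNA tA(AGC) went from 86.2 and 63.3 CPM to 9.15 and 13.1 CPM (-2.75, SE 0.26), and each of its 11 copies was called lower. The leucine tRNA tL(GAG), a single gene, went from 149 and 122 CPM to 18.4 and 29.2 CPM (-2.51, SE 0.26). The threonine tRNA tT(AGU) went from 44.4 and 32.7 CPM to 5.32 and 8.32 CPM (-2.50, SE 0.29), with all 8 tested copies of 11 called lower. The arginine tRNA tR(ACG) went from 123 and 96.7 CPM to 13.8 and 26.5 CPM (-2.45, SE 0.31), with 5 of 6 copies called. In each of these families the highest deletion library lay well under the lowest wild-type library. All genes of tA(AGC) share 1 mature sequence, as do those of tT(AGU), so the calls of their copies are not separate observations.

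At the other end stood 4 sums, none of which passed the test and 3 of which had overlapping strains. Serine tRNA tS(GCU) had 7.39 and 10.0 CPM in wild type against 8.42 and 16.0 CPM in the deletion strain (0.48, SE 0.35, adjusted p = 0.299), and -0.05 without deletion 3. The tS(GCU) sum holds 2 rows, while the reference has 3 genes with this anticodon. Glutamate tRNA tE(CUC) had 168 and 157 CPM against 215 and 212 (0.39, SE 0.18, adjusted p = 0.113), the sole anticodon with both deletion libraries above both wild-type libraries. Leucine tRNA tL(CAA), the family that holds the suppressor gene SUP56, had 269 and 122 CPM against 300 and 138 (0.16, SE 0.40, adjusted p = 0.767), and -0.25 without wild type 2 and -0.50 without deletion 2. Wild type 1 and deletion 2 were thus the high libraries for tL(CAA), 1 from each strain. Serine tRNA tS(CGA), the single essential gene SUP61, had 42.3 and 37.1 CPM against 23.4 and 53.2 (-0.05, SE 0.34, adjusted p = 0.915), with 0.42 without deletion 2 and 0.04 without wild type 1.

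The first anticodon base pairs with the third base of the codon. An A there is known to be turned into inosine, which reads several codons, and all 7 such anticodons fell (median log2 fold change -2.45). Beside the alanine, threonine and arginine families above, these were proline tRNA tP(AGG) at -2.45, isoleucine tRNA tI(AAU) at -2.05, serine tRNA tS(AGA) at -1.62 and valine tRNA tV(AAC) at -1.31. All 7 were also called with library totals, under which 8.5% of features were lower and 42.6% higher, and in each fit without 1 library. The 13 anticodons that begin with U were all called lower as well (median -1.45), from tL(UAG), tI(UAU) at -2.08, tT(UGU) at -1.86, tR(UCU) at -1.85 and tV(UAC) at -1.81 to tP(UGG) at -0.99, tG(UCC) at -0.77 and tE(UUC) at -0.69. Between these lay tQ(UUG) at -1.59, tS(UGA) at -1.45, tL(UAA) at -1.32, tK(UUU) at -1.21 and tA(UGC) at -1.20. Of the 13, 9 were called without deletion 2, 10 without wild type 2, 12 without wild type 1 and without deletion 3, and 9 with library totals.

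Of the 9 anticodons that begin with G, 5 were called lower (median over the 9, -1.28): tL(GAG), tY(GUA) at -2.24, tN(GUU) at -1.85, tD(GUC) at -1.82 and tF(GAA) at -1.28. The others were tC(GCA) at -1.11, tG(GCC) at -0.16, tH(GUG) at -0.06 and tS(GCU). Of the 12 that begin with C, 8 were lower (median over the 12, -1.42). Beside glycine tRNA tG(CCC), these were valine tRNA tV(CAC) at -2.34, the arginine families tR(CCG) at -2.18 and tR(CCU) at -1.26, tryptophan tRNA tW(CCA) at -1.85, threonine tRNA tT(CGU) at -1.75, methionine tRNA tM(CAU) at -1.58 and lysine tRNA tK(CUU) at -1.15. The other 4 were tQ(CUG) at -0.35, tS(CGA), tL(CAA) and tE(CUC). The difference between these groups of anticodons was not tested. Without deletion 2 and without deletion 3, the median for first base G was -0.82 and -2.03.

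Some of these calls were lost in fits without 1 library, which hold only 1 library of a strain. In each such fit a smaller share of all features was called lower, so a lost call alone does not mean a changed estimate. The calls of tP(UGG) (-0.73 and -0.57) and tG(UCC) (-0.52 in both cases) were lost without wild type 2 and without deletion 2. Those of tK(UUU) (-0.93) and tL(UAA) (-1.04) were lost without deletion 2, and that of tF(GAA) without wild type 2 (-1.21). The call of tE(UUC) did not survive leaving out wild type 1 (-0.67), wild type 2 (-0.66) or deletion 3 (-0.53), and that of tR(CCU), with 48, 30, 66 and 53 counts, without wild type 1 (-0.74), deletion 2 (-1.20) or deletion 3 (-1.33). Without deletion 3, tP(AGG) was at -3.26, tR(CCG) at -2.99, tV(UAC) at -2.48, tF(GAA) at -1.96 and tP(UGG) at -1.60, tC(GCA) was called at -2.38 and tQ(CUG) at -0.67.

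Introns, copy number and base composition were set beside the changes. All genes of 10 anticodons have an intron, and 7 of these sums were lower with a median over the 10 of -1.25. Of the 31 anticodons without introns 26 were lower, with a median of -1.62. Over all features of that table, 20.8% were lower and 21.2% higher. The median with introns was -0.87 without deletion 2 and -1.78 without deletion 3. In each of the 4 fits without 1 library it was less negative than the median without introns, and the difference was not tested. The number of copies had a Spearman correlation of 0.07 with the log2 fold change over the 41 anticodons, the wild-type level per 100 bases of gene one of 0.03 and the GC share of the mature sequence one of -0.04, all from the same 4 libraries. The 6 single-gene anticodons had a median of -1.51, those with 2 to 5 copies -1.81 and those with 6 or more -1.59.

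Counts did not follow the number of genes, but they may not measure tRNA levels. How reads with several possible places were counted is not known, and this can bear on the sums of families with identical genes. In wild type the 6 anticodons with the most counts were tQ(CUG) with 1 gene, tP(UGG) with 10, tE(UUC) with 14, tQ(UUG) with 9, tF(GAA) with 10 and tP(AGG) with 2. Per 100 bases of gene, introns included, tQ(CUG) stood at 5642 ± 1041 CPM (SD, n = 2), tE(UUC) at 1046 ± 23.5, tQ(UUG) at 888 ± 256, tP(UGG) at 837 ± 167, tP(AGG) at 492 ± 100 and tF(GAA) at 471 ± 12.1. On this scale the wild-type libraries of tQ(UUG) overlapped those of tE(UUC) and of tP(UGG), and those of tP(AGG) and tF(GAA) overlapped, while both tE(UUC) libraries lay above both tP(UGG) libraries. The order depends on the length used, since all genes of tP(UGG) and tF(GAA) have an intron. Per 100 bases of mature tRNA, tP(UGG) was at 1198 ± 238 CPM, above the mean of tE(UUC) with overlap, and tF(GAA) at 592 ± 15.2 CPM, above tP(AGG) without overlap. Over the 41 anticodons the Spearman correlation of copy number with the level per 100 bases of gene was 0.09, and with the median level of a single copy -0.57.

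The abundant families also differed in their change. The tQ(CUG) row had 4592 and 3532 CPM in wild type against 2544 and 3816 CPM in the deletion strain (-0.35, SE 0.22, adjusted p = 0.221), with overlap, whereas tQ(UUG) fell from 509 and 769 CPM to 153 and 271 CPM (-1.59, SE 0.30, adjusted p = 0.00274). The difference between them was not tested as such. Proline tRNA tP(UGG) had 741 and 984 CPM in wild type against 284 and 581 in the deletion strain, and tP(AGG) had 304 and 406 against 36.9 and 93.4. Phenylalanine tRNA tF(GAA) had 424 and 440 CPM against 111 and 245, and glutamate tRNA tE(UUC) had 765 and 741 against 522 and 413. In these 4 families deletion 3 was above deletion 2 for tP(UGG), tP(AGG) and tF(GAA) and below it for tE(UUC).

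Expressed relative to the nuclear tRNA total of each library, some amino acids were called lower, where 2.03% of features were lower and 44.7% higher. Glutamine tRNA took 48.9% ± 3.36 of tRNA counts in wild type and 59.6% ± 3.21 in the deletion strain (SD, n = 2), glutamate 9.54% ± 0.24 and 12.6% ± 4.40, and histidine 0.273% ± 0.0130 and 0.451% ± 0.0485. None of these 3 passed the test on this scale (glutamine at log2 0.29, adjusted p = 0.561, glutamate at 0.40, adjusted p = 0.457, and histidine at 0.72, adjusted p = 0.101). Arginine went from 4.22% ± 0.36 to 1.48% ± 0.46, tyrosine from 1.24% ± 0.14 to 0.444% ± 0.0271 and alanine from 1.06% ± 0.15 to 0.409% ± 0.0161, and these 3 were called lower (-1.51, -1.48 and -1.38). On this relative scale, on which 2.19% of features were called lower and 44.7% higher, tS(GCU) (log2 1.20, adjusted p = 0.0112), tE(CUC) (1.20, adjusted p = 0.0160) and tL(CAA) (1.07, adjusted p = 0.0330) were higher in the deletion strain, and tG(CCC) (-2.82) was still the lowest. A gain in share of the tRNA total is not a gain against the typical gene, on which none of the 3 was called.

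Single copies moved largely the same way. Of the 239 rows tested, 143 were lower and 2 higher, where 20.7% of all 6124 features tested were lower and 21.2% higher, 41.9% in all. The median log2 fold change over the rows tested was -1.54 against 0.01 over all features, and the filter on low counts kept rows through whichever strain had more counts. Of the 124 rows with a mean count of 50 or more, 72 were lower, 2 were higher and 50 were not called, with values from -4.62 to 2.15. The count of lower rows was smallest without wild type 1 (98) and largest, among the fits without 1 library, without deletion 3 (137). The 2 higher rows were tE(UUC)I and tV(AAC)G1. The first kept its call in 2 and the second in 1 of the 4 fits without 1 library.

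**Figure D3:**
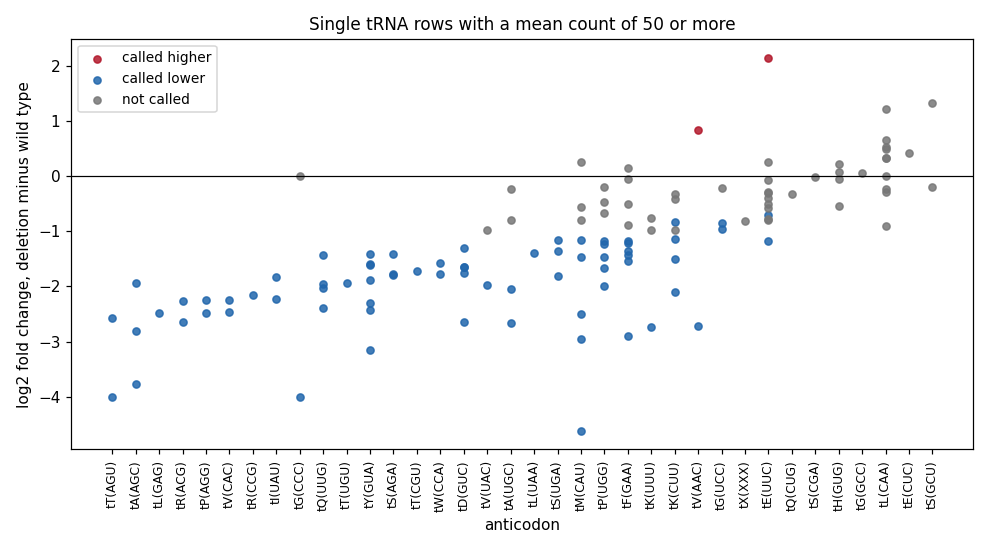
Log2 fold change (deletion minus wild type) of each of the 124 tRNA rows with a mean count of 50 or more, in columns by anticodon that are ordered by their median. Rows of 1 anticodon spread by up to 4.88 (tM(CAU)), and the 2 rows called higher belong to families whose other rows lie lower.

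Because copies can be identical, which gene a read was counted for is uncertain. The sources used here do not say how reads with several possible places were counted. The mature sequence of 260 rows could be assigned, and 16 of them were unlike that of any other gene. These 16 held 65.8% and 61.7% of nuclear tRNA counts in wild type 1 and 2 and 69.1% and 70.1% in deletion 2 and 3. Their median wild-type level was 63.3 CPM, against 3.25 CPM for the 244 rows that share their sequence.

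**Figure D4:**
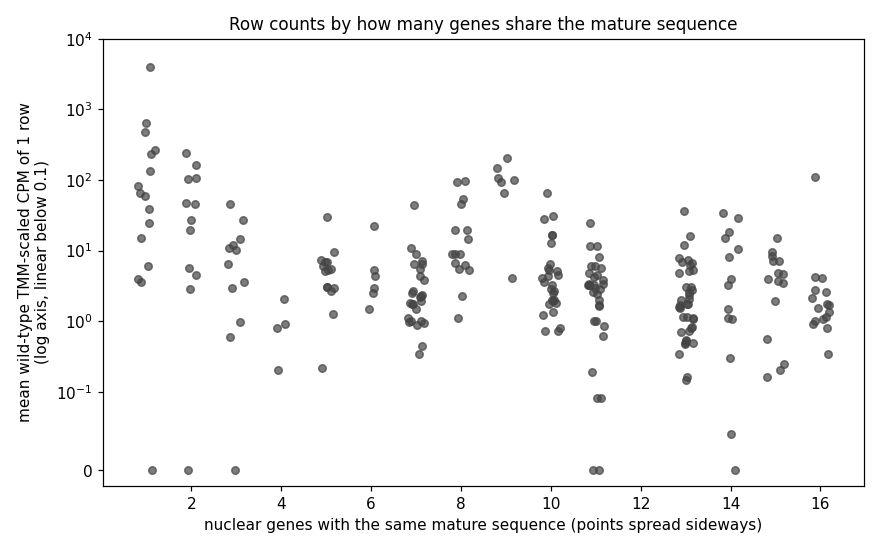
Mean wild-type CPM of each of 260 tRNA rows (log axis, linear below 0.1) against the number of nuclear genes with the same mature sequence. Rows with a unique sequence reach 4014 CPM for tQ(CUG)M, and rows that share theirs stay at or below 244 CPM.

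The fall was present in both kinds of row. Of the 15 tested rows with a unique sequence 12 were lower and 0 higher, with a median of -1.82. Of the 210 tested rows with a shared sequence 121 were lower and 2 higher, with a median of -1.53. Over all features tested, 20.7% were lower and 21.2% higher. Among unique rows, tG(CCC)D, tV(AAC)O (-2.71), tR(ACG)J (-2.64), tL(GAG)G (-2.48), tI(UAU)L (-2.23), tR(CCG)L (-2.15), tI(UAU)D (-1.82), tT(CGU)K (-1.72), tQ(UUG)B (-1.42), tR(CCU)J (-1.23) and tE(UUC)M (-0.70) fell. Of these, tQ(UUG)B (-0.96 without wild type 2) and tE(UUC)M (-0.66 without wild type 2, -0.52 without deletion 3) lost the call without a library. So did tR(CCU)J (-0.71 without wild type 1, -1.17 without deletion 2, -1.29 without deletion 3). Without deletion 3, tV(AAC)O was at -3.76, tR(ACG)J at -3.24 and tR(CCG)L at -2.95. The 2 tE(CUC) genes show the uncertainty within a family. They are identical, yet tE(CUC)I had 1525, 1700, 8907 and 6448 counts in the 2 wild-type libraries, deletion 2 and deletion 3, and tE(CUC)D had 0 in all 4. The single-base variant tE(UUC)M held 85.7% ± 1.97 of the counts of its 14-gene family in wild type.

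The 2 glycine genes with the anticodon CCC can be told apart by the 4 bases given above. SUF3, tG(CCC)D, had 2211 and 2398 counts in wild type against 432 and 545 in the much deeper deletion libraries (log2 fold change -4.01, SE 0.29, adjusted p = 2.50e-05). SUF5, tG(CCC)O, had 28 and 100 counts in wild type against 163 and 253 in the deletion libraries (0.00, SE 0.52, adjusted p = 0.997, with -0.57 without wild type 1 and -0.62 without deletion 3). The fall of tG(CCC) was thus that of SUF3, which held 97.4% of the family's counts in wild type and 70.5% in the deletion strain.

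Methionine tRNA was split by the mature sequence where a chromosome holds copies of only 1 kind. The 3 initiator rows placed in this way had 165 and 176 counts in wild type against 77 and 98 in the deletion libraries (log2 fold change -2.77, SE 0.34, adjusted p = 3.32e-04). The 2 elongator rows placed had 79 and 104 counts against 265 and 274 (-0.25, SE 0.30, adjusted p = 0.518), which is 8.72 and 9.63 CPM against 6.41 and 9.01 CPM. Initiator rows stayed called in every fit without 1 library, from -3.21 to -2.42. The difference between the kinds was not tested as such, and the rows on chromosomes X and XV could not be placed.

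Among rows with a mean count of 50 or more, copies of the same anticodon were furthest apart in methionine. There tM(CAU)O1 had 126 and 132 counts in wild type against 8 and 27 in the deletion libraries (-4.62, with -3.84 without deletion 2 and -5.99 without deletion 3). The elongator row tM(CAU)M had 24 and 39 counts against 122 and 135 (0.26, adjusted p = 0.616, with -0.05 without deletion 3). The first was the lowest and the second the highest of 8 rows of this anticodon with a mean count of 50 or more.

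In valine, tV(AAC)O, whose sequence is unique, had 162 and 137 counts against 45 and 107 (-2.71, with -2.08 without deletion 2 and -3.76 without deletion 3). The row tV(AAC)G1, whose sequence is shared by 13 genes, had 58 and 84 counts against 453 and 421 (0.84, adjusted p = 0.0416, with the call lost at 0.70 without wild type 1, 0.99 without deletion 2 and 0.66 without deletion 3). In glutamate, tE(UUC)J had 93 and 59 counts against 154 and 91 (-1.18, adjusted p = 0.0325, lost at -0.67 without wild type 1 and -1.03 without deletion 3). The row tE(UUC)I had 11 and 5 counts against 211 and 60 (2.15, adjusted p = 0.0238, with 2.96 without wild type 1, and lost at 1.63 without wild type 2 and 1.29 without deletion 2). Both higher rows were among those whose sequence occurs in 13 genes.

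In phenylalanine, tF(GAA)N fell from 435 and 499 counts to 114 and 296 (-2.90, with -2.24 without deletion 2 and -4.05 without deletion 3), while tF(GAA)H1 had 19 and 27 against 84 and 91 (0.15, adjusted p = 0.793, and -0.14 without deletion 3). In alanine with the anticodon UGC, tA(UGC)E had 61 and 79 counts against 37 and 39 (-2.66) and tA(UGC)L 67 and 41 against 167 and 159 (-0.23, adjusted p = 0.659, and 0.31 without wild type 1). In leucine, tL(CAA)G1 had 194 and 130 counts against 453 and 192 (-0.91, adjusted p = 0.0719, and called at -1.23 without wild type 2 and -1.37 without deletion 2). The SUP56 row tL(CAA)A had 151 and 98 counts against 1937 and 345 (1.22, adjusted p = 0.109, and -0.14 without deletion 2, 1.91 and called without deletion 3). Its high value was that of deletion 2 alone.

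The last 2 pairs differed in the size of the fall. In lysine, tK(UUU)O had 43 and 90 counts against 36 and 32 (-2.74) and tK(UUU)G2 had 65 and 78 against 135 and 153 (-0.77, adjusted p = 0.0961). In alanine with the anticodon AGC, tA(AGC)L had 246 and 248 counts against 60 and 66 (-3.76) and tA(AGC)F 56 and 66 against 64 and 48 (-1.94), both called. All 11 genes of that family have the sequence shown above. None of the 150 rows that could be placed at a single reference gene overlapped another annotated gene, and the nearest lay a median of 266.5 bases away.

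Other rows of the table give the range in which these falls stand, and over all features 20.7% were lower and 21.2% higher. Of 23 mitochondrial tRNA rows tested, which another polymerase transcribes, 4 were lower and 4 higher (median log2 fold change 0.30). Of 72 tested rows named snR and a number, 41 were lower and 7 higher (median -0.73). These are mainly small nucleolar RNAs, but the U6 RNA is among them, and SNR52 is counted both here and below. Of the 887 reading frames whose mean level lay in the middle range of the nuclear tRNA rows (log2 CPM 0.31 to 3.22), 50 were lower and 300 higher (median 0.62). The nuclear tRNA rows were lower at their median than each of these classes, and no test between the classes was made.

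Another 10 rows of RNA polymerase III transcripts were looked up, of which 6 could be tested. Of these 6, 3 were lower (median over the 6, -0.98), where 20.7% of all features were lower and 21.2% higher. The snoRNA gene SNR52 had 138302 and 205028 counts in wild type against 223742 and 129289 in the deletion libraries (-1.79, adjusted p = 1.63e-04). The 5S ribosomal RNA rows RDN5-1 (-2.36, and -3.25 without deletion 2) and RDN5-6 (-1.47) fell. Both are rows of 5S RNA and not separate kinds of RNA, and ribosomal RNA had been depleted from all libraries. The signal recognition particle RNA SCR1 (-0.49, adjusted p = 0.0521, and called at -0.72 without deletion 2), the RNase P RNA RPR1 (-0.06) and the U6 RNA SNR6 (-0.11) were not called.

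Messenger RNAs of the RNA polymerase III machinery and of tRNA maturation are read against the 20.7% of all features called lower and the 21.2% called higher. Of 27 genes for the polymerase, TFIIIB, TFIIIC and the repressor Maf1, 9 were lower and 2 higher, with a median of -0.17 against 0.01 for all features. The polymerase subunits RPC17 (-1.04, adjusted p = 0.00242) and RPC34 (-0.83, adjusted p = 0.00685) and the TATA-binding protein SPT15 (-0.94, adjusted p = 0.00372) were among the lower ones. RPC19, the gene next to DBP2 on chromosome XIV, was higher at 1.19 (adjusted p = 0.00692), and lost the call without deletion 2 (0.83). The largest subunit, RPO31 (-0.03), the TFIIIB factor BRF1 (0.37) and MAF1 (0.05) were not called. With library totals, 9.52% of all features were lower and 40.9% higher, with a median of 0.46. Of the 27 genes, 1 was then lower and 8 were higher, and the list's median was 0.29. The sign of the list's median thus depends on the scaling, and it lay below the median of all features on both scales.

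Genes for tRNA maturation were called in both directions. Of 19 genes for end and intron processing, 7 were lower and 3 higher (median -0.09), where 20.7% of all features were lower and 21.2% higher. POP8, a protein of RNase P, fell from 564 and 636 counts to 488 and 359 (-2.32, adjusted p = 8.67e-05). The La protein LHP1, which binds new RNA polymerase III transcripts (-1.10), the 3′ exonuclease REX1 (-1.09) and the splicing endonuclease subunit SEN2 (-0.99) fell as well. The other catalytic and structural subunits of that endonuclease were split, with SEN34 lower (-0.98, lost without deletion 2 at -0.83), SEN15 higher (1.16) and SEN54 not called (-0.09).

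Of 43 modification genes, 8 were lower and 7 higher (median -0.08), where 20.7% of all features were lower and 21.2% higher, so these shares are near the background. The methyltransferases TRM1 (-1.19) and TRM3 (-0.86) were lower, and TRM112, a partner of several methyltransferases (1.56), and the dihydrouridine synthase SMM1 (0.87) were higher. The deaminase subunit TAD2, which makes inosine at the first anticodon base, was at -0.59 (adjusted p = 0.0459) and lost the call in each fit without 1 library, and its partner TAD3 was at -0.08. Of 18 genes of export, import and decay, 3 were lower and 3 higher (median -0.12, against the same background), with MET22, a phosphatase whose loss blocks rapid tRNA decay (-1.34), and the chaperone SSA2 (-1.39) lower and the export factor MTR2 (0.69, lost without deletion 3 at 0.67) and the nuclear exosome subunit RRP6 (0.69, lost without wild type 2 at 0.69 and without deletion 2 at 0.51) higher. With library totals, 9.52% of all features were lower and 40.9% higher, with a median of 0.46. On that scale processing genes had 3 lower and 5 higher (median 0.36). Modification genes had 1 lower and 18 higher (0.37), and genes of export, import and decay 2 lower and 6 higher (0.33). The signs of these medians thus depend on the scaling, and each median lay below that of all features on both scales.

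Messenger RNAs of the cytosolic aminoacyl-tRNA synthetases were lower in most cases. Of 21 genes, 15 were lower and 0 higher, where 20.7% of all features were lower and 21.2% higher, with a median of -0.73 against 0.01 over all features. At the bottom were the threonine enzyme THS1 (26518 and 32044 counts in wild type, 31534 and 21354 in the deletion libraries, -1.97), the glutamine enzyme GLN4 (-1.69), the isoleucine enzyme ILS1 (-1.41) and the alanine enzyme ALA1 (-1.18). Also lower were GRS1 for glycine (-1.14), YDR341C for arginine (-1.13), SES1 for serine (-0.97), YHR020W for proline (-0.96), WRS1 for tryptophan (-0.88), CDC60 for leucine (-0.75), VAS1 for valine (-0.73), HTS1 for histidine (-0.69), MES1 for methionine (-0.67), KRS1 for lysine (-0.60) and DED81 for asparagine (-0.51). The 6 that did not pass were DPS1 for aspartate (0.54, called at 0.76 without deletion 3), TYS1 for tyrosine (0.10), YNL247W for cysteine (-0.44), GUS1 for glutamate (-0.39) and FRS1 (-0.34) and FRS2 (-0.30) for phenylalanine. HTS1, MES1 and KRS1 were not called once wild type 1 (-0.66, -0.59 and -0.59), wild type 2 (-0.69, -0.71 and -0.58) or deletion 3 (-0.59, -0.53 and -0.44) was left out. CDC60 (-0.57) and WRS1 (-0.63) lost theirs without wild type 2, VAS1 (-0.62) without deletion 3 and DED81 in each of the 4 fits (-0.52 to -0.45). With a library left out, the median over the 21 ran from -0.83 without deletion 2 to -0.62 without deletion 3. With library totals 7 were lower and 1 higher (median -0.29), where 9.52% of all features were lower and 40.9% higher (median 0.46). With upper-quartile factors 13 were lower and 1 higher, where 16.8% of all features were lower and 24.1% higher.

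**Figure D5:**
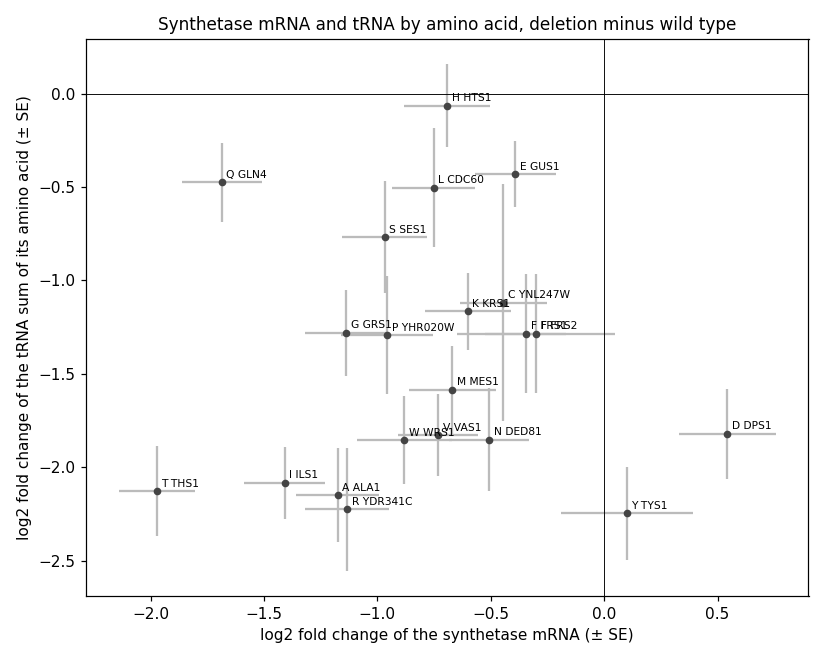
Log2 fold change of the summed tRNA of each amino acid against that of the messenger RNA of its synthetase (± SE on both axes, deletion minus wild type, letters give the amino acid). Most points lie in the lower left, with glutamine (GLN4) and tyrosine (TYS1) far apart on the 2 axes.

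The changes of enzyme and tRNA were set side by side for each amino acid, and their relation was not tested. Over 21 synthetase genes the Spearman correlation of the 2 log2 fold changes was 0.13, with all values from the same 4 libraries and phenylalanine counted for both its subunits. Glutamine had one of the lowest enzymes, at -1.69, and a tRNA sum of -0.48. Tyrosine had the lowest tRNA sum, at -2.25, and an enzyme at 0.10 (0.68 and called without wild type 1, -0.28 without wild type 2).

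In the authors' deposited table, which covers 6456 features, 261 nuclear tRNA rows are listed. There 159 were lower, 4 higher and 98 not called at an adjusted p below 0.05, with a median log2 fold change of -1.51. In the authors' deposited table as a whole, 42.8% of features were called, 19.6% as lower, and the median was 0.06. Of the 239 rows tested here, 237 had the same sign in the authors' deposited table, and 143 were called lower in both.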

How the data were processed

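Nuclear tRNA rows were taken from a table that the authors made by re-analysing earlier strand-specific reads of a wild-type and a dbp2 deletion strain. Each strain is 1 sample with 2 count columns, whose numbers serve as names only. The deposited counts are raw whole numbers per feature for the sense strand, per the file headers and the values, with R64 (sacCer3) as the genome build according to the submitters' processing notes. Neither they nor the other sources used here give the aligner, the counting program or the handling of reads with several places. The authors' own edgeR results, deposited as a second table, list per feature a log2 fold change, a mean log2 CPM, a p-value and an adjusted p-value, per the file headers.

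Counts were compared with edgeR 4.0.16 in R 4.3.3: filterByExpr, TMM factors, and the quasi-likelihood test (glmQLFit, glmQLFTest) with Benjamini-Hochberg adjustment over all features of a table, called at an adjusted p below 0.05. Single rows, anticodon sums, amino acid sums and the sum of all nuclear tRNA rows were each fitted within a version of the whole table. The SE was taken as the absolute log2 fold change over the root of F. Library totals ran from 10860000 to 36028173 counts, and the 3 counts that a count of 0 allows were 0.0833 to 0.276 CPM of these totals. TMM factors were 0.845 and 0.868 for wild type and 1.13 and 1.21 for the deletion libraries. Libraries of a strain differed over the tRNA rows beyond sampling noise, with a chi-square over its degrees of freedom of 17.0 and 51.1. The fit was tested on simulated data.

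Reference tRNA genes were matched to rows by amino acid, anticodon and chromosome, which placed 150 rows at a single gene. Values per library are given for the 6 anticodon sums with the highest mean CPM, and, among sums with a mean count of 50 or more, the 6 with the most negative and the 4 with the most positive log2 fold change. For anticodons with at least 3 tested copies they are given for the lowest and the highest copy with a mean count of 50 or more, in the 8 anticodons with the widest gap. The pathway lists give their 4 members with the smallest p, the synthetases 1 value per amino acid, and DBP2, LYS2 and MET17 check the labels. Genes named outside this rule, among them TAD2, TAD3, MAF1, BRF1 and RPO31, the rows with unique sequences and SUF5, were chosen after their values were seen. Alternatives were other scalings, no filter, DESeq2 1.42.0, each library left out, and scaling to the tRNA total. The modification list names PUS3 and DEG1, which are the same gene, counted once. The members and lists were chosen with earlier results of these data known.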

Additional observations from a re-analysis of the deposited data

How the results depend on the processing

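Counts of lower tRNA rows, anticodons and amino acids stayed within 1.5 times of the reported ones under the other scalings to library size, without a filter on low counts, in DESeq2 and with each library left out. They ran from 98 to 144 rows (143 reported), from 28 to 34 of 42 anticodon sums with tX(XXX) among them (34 reported) and from 12 to 18 of 21 amino acid sums with the group X (15 reported). With the median over copies in place of their sum, 41 of these 42 groups passed the filter on low counts, of which 28 were lower and 0 higher. Higher rows numbered 2, with 7 under library totals, 1 with TMM factors from protein-coding rows, 4 with upper-quartile factors, and 1 to 5 with a library left out. Higher anticodons numbered 0, with 2 under library totals and 1 with upper-quartile factors. The log2 fold change of the nuclear tRNA sum was -0.77, lost its call at -0.27 under library totals, and ran from -1.04 to -0.55 with a library left out. Under library totals the median of all features was 0.46 to 0.50.

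Some log2 fold changes changed sign. Under library totals these were tG(GCC) at 0.33, tH(GUG) at 0.43, tQ(CUG) at 0.14, tS(CGA) at 0.45, the sums of glutamate (0.053), histidine (0.43) and glutamine (0.023), tA(UGC)L at 0.23 and the elongator methionine rows, a split chosen after seeing the data, at 0.23. With upper-quartile factors they were tH(GUG) (0.089), tS(CGA) (0.10) and histidine (0.093). Relative to the nuclear tRNA total, tE(UUC) was at 0.14, tG(GCC) at 0.59, tH(GUG) at 0.72, tQ(CUG) at 0.41, tS(CGA) at 0.66, glutamate at 0.40, histidine at 0.72, leucine at 0.39, glutamine at 0.29 and tA(UGC)L at 0.52. Relative to that total without tQ(CUG)M, also chosen after seeing the data, tE(UUC) was at 0.52, tG(GCC) 0.99, tG(UCC) 0.39, tH(GUG) 1.10, tK(CUU) 0.0062, tP(UGG) 0.13, tQ(CUG) 0.79, tS(CGA) 1.06, tX(XXX) 0.11, glutamate 0.77, histidine 1.10, leucine 0.73, glutamine 0.67, serine 0.35, the group X 0.11, tA(UGC)L 0.88, tK(UUU)G2 0.35 and tL(CAA)G1 0.27. Of these, 1 value relative to the total (tE(UUC)) and 6 relative to the total without tQ(CUG)M were called lower in the reported fit.

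With a library left out, tG(GCC) ran from -0.47 to 0.11, tH(GUG) from -0.20 to 0.069, histidine from -0.21 to 0.065, tL(CAA) from -0.50 to 0.84, tS(CGA) from -0.76 to 0.42 and tS(GCU) from -0.049 to 0.87. Among single rows, tA(UGC)L ran from -0.60 to 0.31, tF(GAA)H1 from -0.14 to 0.41, tL(CAA)A from -0.14 to 1.91 and tM(CAU)M from -0.051 to 0.55. Of 81 sums and rows followed, 64 to 71 kept their direction and side of the threshold in each such fit. The cause was not tested. No paired analysis was possible because the wild-type columns are numbered 1 and 2 and the deletion columns 2 and 3, so that they share only the number 2.

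Levels per mature length, beside those per gene length, were added after seeing the data. With 2 libraries per strain, leaving out a single library changed several calls. Counts of single copies with shared sequences are uncertain, and rows with few counts, such as those of cysteine and tR(CCU), give wide errors.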
